A study of Mus musculus with 4 samples.

Results

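The cells described here were lung tumour epithelial cells of mice with high counts of Cldn4, a tight-junction claudin, and Krt7, a keratin of simple epithelia. They carry the working name Cldn4 Krt7 high cells, and 3093 of 15189 epithelial cells, out of 29367 barcodes in 4 single-cell libraries, were members. A barcode was kept with at least 2000 unique molecular identifiers (UMIs, each a captured transcript molecule) and at most 20% mitochondrial UMIs. Epithelial cells held at least 2 UMIs of Epcam, Cdh1, Krt8, Krt18 and Cldn18 together and none of Ptprc, Cdh5 or Col1a2, which mark leukocytes, endothelium and fibroblasts. Members held at least 5 UMIs of Cldn4 and Krt7 together per 10000 UMIs of the cell. They also stayed under limits, per 10000 UMIs, of 4 for Rtkn2, Col4a3 and Col4a4, which type 1 cells express, of 10 for Rbp4, Agr2 and Phgr1, of 20 for Dlk1 and Bpifa1, and of 5 for Lyz1 and Retnla. These measured values chose the members, so the levels of the rule genes are a description, and so is each difference between members and the remaining epithelial cells.

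Every mouse carried a p53frt allele, a Flp-activated oncogene allele, a Rosa-FSF-CreERT2 allele and an Hnf4aflox allele, and tumours were started with Ad-mSPC-FlpO, an adenovirus whose Flp recombinase is driven by the surfactant protein C promoter. After 10 weeks, mice received tamoxifen or vehicle, which the labels give both as ethanol and as corn oil, and tumours were collected 2 weeks later. Macroscopic tumours were pooled, with the number of animals per pool not stated, and live DAPI-sorted cells were loaded after cryopreservation. Each suspension gave a library before and a library after magnetic depletion of CD45 and CD31 cells, so the 4 groups (vehicle before and after depletion, then tamoxifen before and after it) had 1 library each. No test between groups was possible, the paired portions do not replicate each other, and groups of 4 values below are in that order.

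After injury to the lung, alveolar type 2 cells, which make surfactant, can pass through a stretched intermediate state on the way to flat type 1 cells. Such transitional cells are known for keratins and claudins of simple epithelia, for S100 proteins, integrins and wound-response ligands, and for a loss of surfactant transcripts. A related state, described in mouse lung adenocarcinoma as a high-plasticity state, shares part of this programme.

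The library labels were compared with the counts first. Hnf4a, the nuclear receptor whose floxed allele the study carries, stood at 111, 77.3, 120 and 98.6 CPM (UMIs of the gene per 1000000 UMIs, summed over cells) in Cldn4 Krt7 high cells. It was not lower in the libraries labelled tamoxifen. The exons that are floxed were not given in the sources used here and the assay reads 3′ ends, so this count does not check the deletion, and likewise the Trp53 level of 116, 113, 117 and 114 CPM checks nothing. The Cre feature had 8, 121, 23 and 118 UMIs in Cldn4 Krt7 high cells, or 1.79, 3.73, 4.23 and 3.91 CPM, against 2.51, 3.06, 3.06 and 2.94 CPM in the other epithelial cells. Features for flpO, GFP and Tdtomato had no UMI in members.

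Cldn4 Krt7 high cells were 127 of 872 epithelial cells in the vehicle library before depletion, or 14.6% (95% exact Clopper-Pearson interval 12.3 to 17.1%). After depletion the vehicle library held 1371 of 6357, or 21.6% (20.6 to 22.6%). The tamoxifen libraries held 139 of 922 before depletion, or 15.1% (12.8 to 17.6%), and 1456 of 7038 after it, or 20.7% (19.7 to 21.7%). Both shares after depletion were above both shares before it, and within each portion the intervals of the 2 treatments overlapped. Intervals and floors throughout cover counting error only, not differences between animals. Intervals of CPM and of count ratios also leave out the spread between cells. Median depth in members was 32698, 21327, 35526 and 18721 UMIs, against 21647, 17688, 24409 and 16524 in the other epithelial cells, so members were the deeper cells in each library and the libraries before depletion were the deeper ones. The part of depth, of bead depletion and of immune RNA in the epithelial gate in these shares was not tested. With each cell thinned to 5000 UMIs before the rule was applied, the shares were 13.6, 20.5, 13.6 and 19.5%. The cells were in part different ones. Of 121, 1333, 134 and 1414 members with at least 5000 UMIs, 96, 1019, 96 and 1100 stayed members. Another 47, 241, 58 and 233 cells became members.

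Library facts that touch these cells were few. The libraries shared 10 to 18 barcodes by pair, and 0 or 1 of them were member barcodes in both. Median mitochondrial shares were 2.45 to 3.50% in members and 3.10 to 4.54% in the other epithelial cells. Scrublet, a doublet caller, marked cells in only 1 of 4 libraries and so had not worked in the others. A doublet score above 0.25 was reached by 0, 20, 0 and 30 members.

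Promoters of some of these genes hold a repeated motif, and 3 windows are shown because they carry 2 matches each to TGANTCA. This 7-letter pattern is a loose form of the site of AP-1, the Fos and Jun dimer, with any middle letter allowed. The windows are RefSeq sequence of GRCm38.p6, written 5′ to 3′ on the gene's strand with matches in capitals, and were chosen after the matches were seen. The Cldn4 window is chr5:134947061-134947184 on the minus strand, with matches that begin 240 and 158 bases before the transcript start. The F3 window is chr3:121723366-121723433 on the plus strand, with matches at 146 and 135 bases before the start of this gene of tissue factor. The first F3 match, TGAATCA, has A as its middle letter. The Anxa10 window is chr8:62123194-62123398 on the minus strand, with matches at 180 and 16 bases before the start of this annexin gene.
Cldn4: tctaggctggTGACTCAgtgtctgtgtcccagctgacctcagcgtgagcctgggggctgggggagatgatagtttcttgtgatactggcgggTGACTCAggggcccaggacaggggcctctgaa
F3: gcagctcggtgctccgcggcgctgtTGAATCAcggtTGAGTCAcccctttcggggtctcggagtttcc
Anxa10: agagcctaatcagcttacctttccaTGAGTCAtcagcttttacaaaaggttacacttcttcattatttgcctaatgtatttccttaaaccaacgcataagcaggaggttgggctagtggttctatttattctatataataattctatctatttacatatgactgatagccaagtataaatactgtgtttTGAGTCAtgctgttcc

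Across promoters the motif was searched on both strands in the 250 bases before each start. It was present in 40 of the 241 promoters found for genes that were higher in Cldn4 Krt7 high cells (16.6%), and in 18 of the 189 found for genes that were lower (9.52%), by the size rule given below. The same pattern lay in 382 of 7054 promoters of all genes considered (5.42%) and in 6.75% of the 32851 promoters in the table. GGAATG, the core read by TEAD factors, was present in 17.4% of the promoters of higher genes, 14.8% of those of lower genes and 12.9% of all those considered. The AP-1 letters in another order, ACTNAGT, were present in 7.05, 6.88 and 4.61%. Median GC content was 59.4% for higher genes, 55.6% for lower genes and 60.4% for all genes considered. A match is a description of these letters and shows no binding, and the Krt7 window held none. Among the markers and the furthest higher genes named below that had a promoter found, only Cldn4 and Anxa10 held a match. Among the furthest lower genes with a promoter found, only Pde1c held 1.

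The markers S100a14, Clu and Lmo7 were chosen with earlier results of these data known. Their levels describe these cells and do not test a label. S100a14, an S100 family protein of epithelia at chr3:90526856-90528837, stood at 1229, 1549, 1264 and 1114 CPM in members and at 315, 495, 265 and 258 CPM in the other epithelial cells. The exact Poisson intervals in members were 1197 to 1262, 1535 to 1562, 1234 to 1294 and 1102 to 1126 CPM. Clu (clusterin, a secreted chaperone; chr14:65968483-65981547) stood at 6231, 5993, 9664 and 9373 CPM against 1441, 1937, 1902 and 2120 CPM. For both genes the lowest member value lay above the highest value of the other cells, and Clu was higher in members of both tamoxifen libraries than of both vehicle libraries. Lmo7, a LIM-domain protein of adherens junctions (chr14:101729957-101934710), stood at 1228, 1179, 716 and 689 CPM against 490, 566, 322 and 382 CPM. Its log2 ratio was 1.32, 1.06, 1.15 and 0.85, so it missed 2-fold in the tamoxifen library after depletion, and cells over the limit for type 1 genes held it at 1222 to 1706 CPM. The rule genes themselves stood at 328, 344, 281 and 324 CPM for Cldn4 (chr5:134945119-134946934) and at 1389, 1405, 1503 and 1426 CPM for Krt7 (chr15:101411043-101430313).

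Members just inside the limit of 5 numbered 335 (5 to 6 UMIs of Cldn4 and Krt7 per 10000) and cells just outside numbered 409 (4 to 5). S100a6 stood at 2437, 2909, 2909 and 2090 CPM just inside and at 1055, 2395, 1218 and 1568 CPM just outside. Sftpc, surfactant protein C, stood at 38417, 48802, 42042 and 62648 CPM inside and at 56890, 52401, 69177 and 63501 CPM outside. Clu stood at 3084, 3128, 3916 and 3846 CPM inside and at 2396, 2511, 2404 and 2595 CPM outside. In each library S100a6 and Clu were higher and Sftpc lower just inside, and over the libraries the ranges overlapped for S100a6 and Sftpc but not for Clu. Itga2, an integrin subunit gene, had no shared direction, at 256, 146, 208 and 151 CPM inside and 44.8, 170, 178 and 113 CPM outside.

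**Figure D1:**
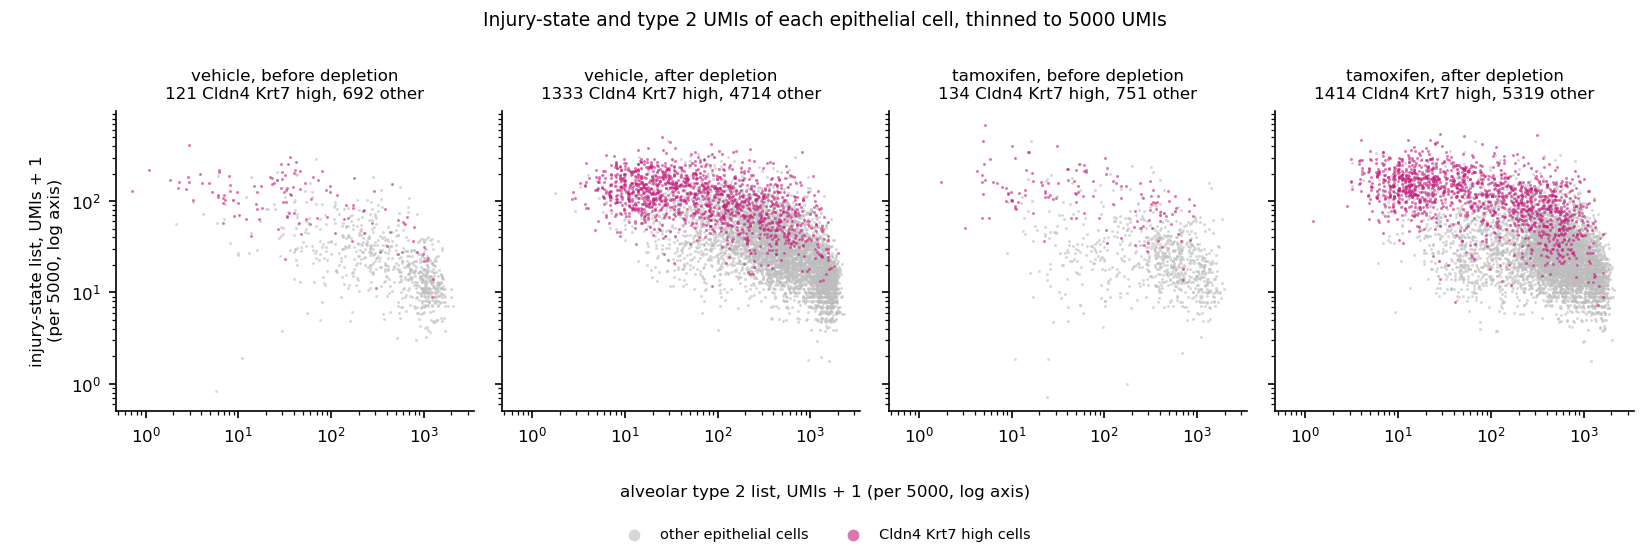
Each point is 1 epithelial cell thinned to 5000 UMIs, with alveolar type 2 list UMIs on the horizontal and injury list UMIs on the vertical log axis, 1 panel a library; points are jittered and 1 is added. Cldn4 Krt7 high cells reach over 100 UMIs of the injury list and spread from fewer than 10 to about 1000 UMIs of the type 2 list, overlapping the other cells at the right. The injury list includes the marker Clu.

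Between Cldn4 Krt7 high cells and the other epithelial cells of the same library, 8829 genes were considered. A gene had to reach 10 CPM in either set of cells in each library, and it counted as higher or lower when the ratio of (CPM + 1) was at least 2-fold the same way in all 4 libraries. By this size rule 327 genes (3.7%) were higher and 252 (2.85%) lower, and the median log2 ratio of all genes considered was 0.07 to 0.13. The members were chosen from the same counts, so these are not tests. The other epithelial cells include those kept out by the other limits of the rule. Against the cells that failed only the Cldn4 and Krt7 limit (406, 2366, 455 and 2940 cells), 436 of 8843 genes considered were higher and 298 lower. In both comparisons 311 genes were called higher and 225 lower.

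The gene furthest above the other cells was Pyy. Pyy, the gut hormone peptide YY, stood at 58.9, 41.4, 586 and 356 CPM in members and at 0.462, 1.93, 3.25 and 6.69 CPM in the others. Its exact Poisson intervals in members, which leave out the spread between cells, were 52 to 66.5, 39.2 to 43.7, 566 to 607 and 349.8 to 363 CPM. The member values were higher in every library, by log2 5.36, 3.85, 7.11 and 5.54, and the tamoxifen libraries held the highest levels. Pyy was a gene of few cells: after thinning to 5000 UMIs, 2.48, 2.63, 7.46 and 10.7% of members had a UMI of it, against 0.145, 0.212, 0.133 and 1.24% of the other cells. Unthinned, 4.72, 3.94, 12.9 and 14% of members had one. Endothelial cells were chosen with Cdh5 and with no UMI of Ptprc, Epcam, Cdh1, Krt8, Krt18 or Cldn18. Barcodes with free RNA of those epithelial genes were thereby dropped, so shares in endothelial cells can understate free RNA. These endothelial cells, which should lack such genes, numbered 80, 45, 84 and 36 after thinning, with median depths of 12089, 8928, 9178 and 6769 UMIs before it. Of them 0, 0, 0 and 2.78% had a Pyy UMI, and the counts of 0 in the first 3 libraries allow up to 3.75, 6.67 and 3.57%, by the limit of 3 counts. In the fourth, 1 of 36 cells had one (exact interval 0.0703 to 14.5%). Unlike Pyy, Itga2 and S100a6, described below, were high across most members.

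Inhba, the activin beta-A subunit, stood at 106, 75.2, 75.5 and 63.4 CPM in members and at 12.9, 7.41, 1.58 and 4.59 CPM in the others. Tnfrsf11b (osteoprotegerin, a decoy receptor) stood at 31.6, 29.2, 15.7 and 32.3 CPM against 3.18, 2.19, 1.30 and 1.89 CPM. For both of these secreted factors the member values did not overlap the values of the other cells. Endothelial cells of the same libraries also carried Tnfrsf11b, at 26.7 to 65 CPM, and held Inhba at 2.48 CPM or less.

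Aldh1a3, which makes retinoic acid, stood at 147, 137, 122 and 127 CPM in members and at 20.6, 9.40, 1.90 and 4.71 CPM in the others. The spread came from the other cells: log2 ratios ran from 2.78 in the vehicle library before depletion to 5.40 in the tamoxifen library before depletion, while member values stayed within 122 to 147 CPM. Onecut2, a homeobox transcription factor, stood at 77.3, 61.8, 102 and 151 CPM against 7.90, 6.34, 8.96 and 18.4 CPM. A Onecut2 UMI was in 14, 12.3, 20.9 and 27.4% of thinned members (28.3, 20.9, 38.1 and 37.6% unthinned), in 1.30, 1.42, 2.13 and 3.25% of the others and in none of the thinned endothelial cells. Anxa10, an annexin of gastric epithelium, stood at 54.2, 43.4, 26.5 and 25.6 CPM against 3.03, 3.33, 0.232 and 1.72 CPM, with both vehicle libraries above both tamoxifen libraries.

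Among kinases and regulators of the cytoskeleton, Nrk, a Ste20-type kinase, stood at 120, 120, 49.9 and 41.5 CPM against 6.87, 9.84, 0.929 and 2.03 CPM. Tiam2, an activator of Rac, stood at 81.6, 79.5, 45.8 and 64.7 CPM against 5.08, 6.21, 2.32 and 4.96 CPM. Plekhg3, another exchange factor, had log2 ratios of 2.72 to 3.44, and Tns4, a tensin of focal adhesions, 2.97 to 3.83. Cwh43 had ratios of 3.46 to 4.05, and Csgalnact1, which starts chondroitin sulfate chains, 3.16 to 3.94. Csgalnact1 was also an endothelial gene here, at 120.3 to 165 CPM in the endothelial cells.

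A pair of mast cell protease genes also led the higher genes. Mcpt1 stood at 63.6, 90.8, 162 and 252 CPM in members and at 2.05, 11.5, 15.7 and 6.78 CPM in the others. Mcpt8 stood at 79.3, 43.3, 119 and 132 CPM against 8.26, 4.83, 6.08 and 5.11 CPM. These genes have close paralogs (Mcpt2 stood at 47.1, 107, 110 and 131 CPM in members), so the split between copies is uncertain. Of 10 other mast cell and basophil genes, a list chosen after these values were seen, Hdc, histidine decarboxylase, stood at 24.2, 28.4, 71.6 and 69.5 CPM in members and at 125, 118, 242 and 231 CPM in the others. Besides Hdc and Mcpt2, genes of that list were near 0 in members: Cpa3 at up to 0.448 CPM, Ms4a2 at up to 0.0925 CPM, Tpsb2 at up to 0.224 CPM, Kit at up to 0.308 CPM, Mcpt4 at up to 0.896 CPM, Cma1 at up to 0.448 CPM, Gata2 at up to 0.920 CPM and Fcer1a with no UMI. Among thinned members, 4.96, 6.6, 9.70 and 12% had a Mcpt1 UMI (7.09, 9.85, 17.3 and 16.3% unthinned), against 1.30, 0.764, 0.666 and 0.940% of the others and 1.25, 0, 0 and 0% of endothelial cells.

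Dcpp1 was the gene furthest below the other cells. Dcpp1, a secreted protein with close paralogs beside it and so uncertain in its split, stood at 17.5, 43.2, 25.2 and 39.2 CPM in members and at 445, 659, 896 and 981 CPM in the others. Lyz2, lysozyme of macrophages and of mouse type 2 cells, stood at 641, 866, 233 and 573 CPM against 6339, 5010, 4123 and 3589 CPM. Every member value lay below every value of the other cells for both genes. Against the cells that failed only the Cldn4 and Krt7 limit, log2 ratios were -4.15 to -2.64 for Dcpp1. For Lyz2 they were -4.71 to -3.19, further below than Dcpp1. Complement genes Hc and C6 had log2 ratios of -4.13 to -2.51 and -3.48 to -2.32. Acoxl, an acyl-CoA oxidase relative, ran from -3.70 to -2.46, and Lrg1, a secreted glycoprotein, from -3.12 to -2.38. Further ratios were -3.85 to -2.59 for Lce3f, -2.67 to -2.29 for the sialyltransferase gene St6galnac3, -2.98 to -2.29 for the zinc finger gene Zbtb16 and -3.06 to -2.22 for the phosphodiesterase gene Pde1c. Endothelial cells also carried Lrg1, at 719 to 1031 CPM.

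**Figure D2:**
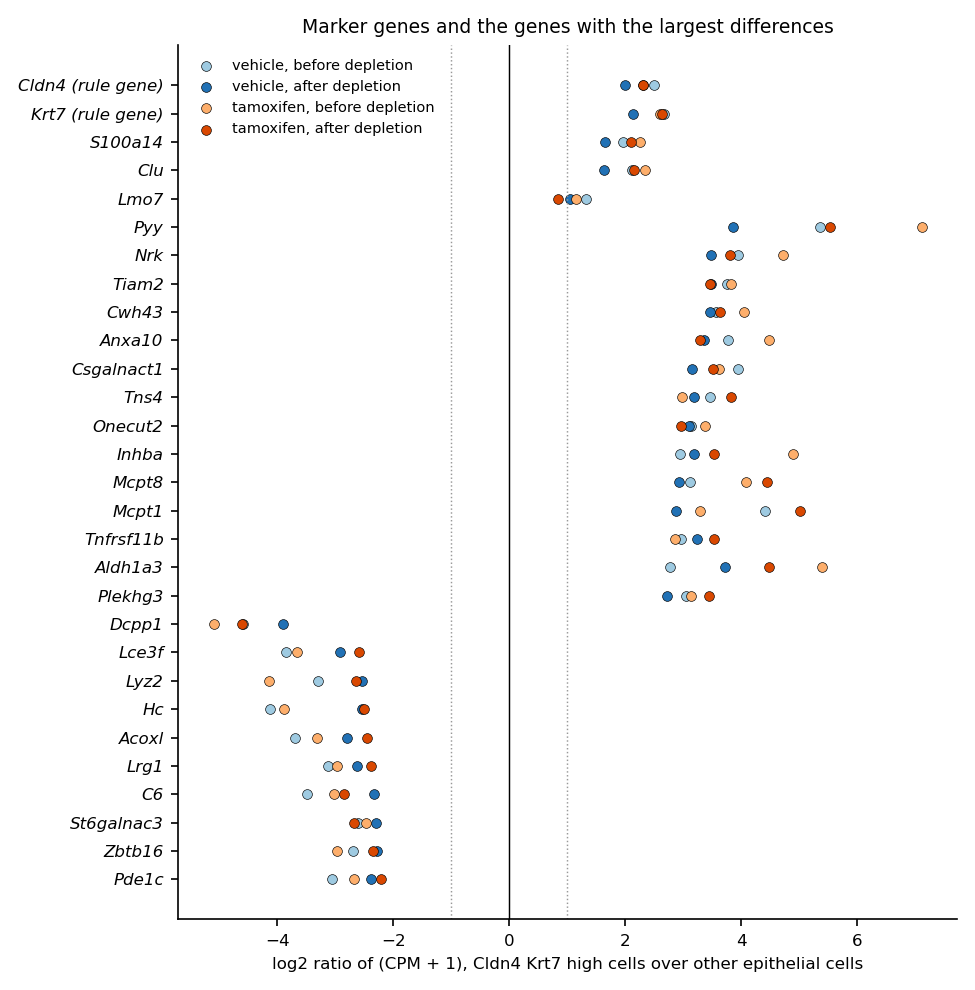
Log2 ratio of (CPM + 1) in Cldn4 Krt7 high over other epithelial cells, 1 point a library, with dotted lines at 2-fold. Pyy spreads most among the higher genes (3.85 to 7.11), and Lmo7 lies below the line in 1 library (0.85).

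In the lists below only genes that reached the 10 CPM minimum were considered and could be called, and the counts stand beside the 3.7% higher and 2.85% lower over all genes. Of the 24 injury and transitional genes listed for this report, all considered, 18 were higher and 0 lower, with a median log2 ratio of 1.20 to 1.69 over the libraries. Their summed level was 22730, 23474, 26331 and 26347 CPM in members and 6596, 8840, 6641 and 7208 CPM in the others. The marker Clu is on this list and so part of its count and sum, at 6231, 5993, 9664 and 9373 CPM in members. S100a6, a calcium-binding protein, stood at 5915, 5853, 5824 and 5906 CPM in members and at 1294, 1924, 802 and 899 CPM in the others. Member values of S100a6 were nearly level over the libraries, and the differences between libraries lay in the other cells.

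Ligands, surface proteins and matrix genes of the injury list were in part higher. Areg, amphiregulin, an EGF receptor ligand, stood at 1455, 1858, 1630 and 1665 CPM against 546, 857, 569 and 669 CPM. Lgals3, galectin 3, stood at 1477, 1638, 1313 and 1324 CPM against 331, 419, 291 and 317 CPM. Plaur, the urokinase receptor, stood at 266, 244, 234 and 219 CPM against 87.1, 103, 64.4 and 60.6 CPM. Hbegf, another EGF receptor ligand, did not reach 2-fold: 354, 374, 347 and 464 CPM against 227, 306, 281 and 335 CPM. Lamb3, a laminin chain, did not either (log2 -0.08 to 0.24).

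Intracellular genes of the same list included Ndrg1, a stress-induced gene, at 339, 292, 249 and 225 CPM against 71.9, 106, 31.7 and 45.1 CPM. Tnip3, an NF-kB inhibitor, stood at 76.2, 65.3, 89.3 and 104 CPM against 8.26, 9.27, 12 and 13 CPM. Anxa1, an annexin, stood at 1198, 1355, 1360 and 1360 CPM against 502, 672, 620 and 617 CPM. All 4 member values of each gene lay above all 4 of the others.

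Of the 6 high-plasticity genes the 5 considered were higher, and the median ratio was 2.05 to 3.07. Itga2, the integrin alpha-2 subunit that binds collagen, stood at 716, 545, 585 and 473 CPM in members and at 81.9, 118, 61.8 and 70 CPM in the others. After thinning, 58.7, 57.9, 56 and 56% of members and 9.10, 16.1, 10.1 and 13.6% of the other cells had an Itga2 UMI, and unthinned 71.7, 70.9, 75.5 and 71.6% against 19.9, 30.4, 24.1 and 26.5%. Endothelial cells express this integrin (59 to 89.2 CPM) and are no measure of free RNA for it. Igfbp3, a binding protein of insulin-like growth factors, stood at 83.8, 55.2, 154 and 113 CPM against 9.80, 13, 5.01 and 16.4 CPM. Slc4a11, a membrane transporter, stood at 28.7, 17.3, 20.2 and 25.3 CPM against 1.90, 2.53, 1.81 and 2.26 CPM. Tigit, an immune receptor gene on this list, stayed at or under 0.86 CPM in members.

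Surfactant genes were lower. Of the 20 alveolar type 2 genes 15 were lower and 0 higher, with a median ratio of -1.73 to -1.25, and the summed level was 24119, 37450, 35226 and 41301 CPM against 112848, 113925, 110389 and 113192 CPM. Sftpc stood at 13866, 24104, 21610 and 27132 CPM in members and at 75682, 79538, 77176 and 80955 CPM in the others. Sftpa1, a surfactant collectin, stood at 1847, 2979, 2675 and 3061 CPM against 8874, 8950, 8788 and 8838 CPM. Slc34a2, the phosphate transporter of type 2 cells, stood at 296, 284, 402 and 459 CPM against 1884, 1191, 1748 and 1478 CPM. Sftpb did not pass: 2890, 3884, 5478 and 4678 CPM against 5812, 5755, 6183 and 5794 CPM.

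Per cell, the median member held 3, 23, 12.5 and 16 Sftpc UMIs of 5000, against 396.5, 359.5, 317 and 366 UMIs in the other cells. Fewer than 50 UMIs of the type 2 list were left in 60.3% (51 to 69.1%), 44.1% (41.4 to 46.8%), 46.3% (37.6 to 55.1%) and 44.1% (41.5 to 46.8%) of members. The same held for 8.09, 6.49, 9.59 and 6.34% of the other cells. Endothelial cells, as a measure of free RNA that can be too low, held Sftpc at 228, 1378, 257 and 1455 CPM, more after than before depletion. Member levels of Sftpc are therefore not ranked between libraries.

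Antigen presentation was lower with the surfactant genes: 6 of the 7 MHC class II genes were lower and 0 higher, with a median ratio of -1.66 to -1.43. Cd74, the invariant chain, stood at 899, 1046, 979 and 1080 CPM against 2522, 2416, 2520 and 2420 CPM. Ciita, the master regulator of the class, stood at 7.39, 5.09, 6.81 and 6.20 CPM against 26.2, 18.8, 24.2 and 21.4 CPM.

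Type 1 genes were less apart from the other epithelial cells. Of 18 alveolar type 1 genes (14 considered) 1 was higher (Cav2, a caveolin, at log2 1.27 to 1.62) and 0 were lower, with a median ratio of 0.21 to 0.36. Ager, the receptor that marks type 1 cells, stood at 555, 730, 659 and 661 CPM against 801, 927, 894 and 900 CPM. The rule itself kept cells with type 1 genes out of the members and left them among the others. Against the cells that failed only the Cldn4 and Krt7 limit, 7 type 1 genes were higher, beside 436 of the 8843 genes considered there. The marker Lmo7 is 1 of those 7, with log2 ratios of 1.24 to 1.96. The list had a median ratio of 0.52 to 1.02 in that comparison, and Ager remained at -0.34 to -0.15.

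Among structural genes, 3 of 11 keratins outside the rule (4 considered) were higher. Krt19 stood at 996, 1174, 1212 and 1018 CPM against 313, 459, 278 and 288 CPM, and Krt14, a basal keratin, at 36.5, 31.6, 21.5 and 15 CPM against 1.33, 5.27, 2.04 and 2.22 CPM. Krt80 had log2 ratios of 1.55 to 2.13. Of 10 S100 genes (7 considered) 5 were higher, with S100a11 at 1999, 1849, 2397 and 2150 CPM against 776, 793, 833 and 752 CPM, and S100a16 at log2 1.87 to 2.09. The marker S100a14 is 1 of these 5. S100a4, common in fibroblasts and leukocytes, had no shared direction (-1.28 to 1.62). Of 25 junction genes (23 considered) 1 was higher, the plakophilin gene Pkp3, at log2 1.05 to 1.43.

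Of 18 mesenchymal and TGF-beta genes (12 considered) 3 were higher. Vim, vimentin, stood at 367, 368, 257 and 232 CPM against 77.3, 49.5, 56.7 and 64.7 CPM. Fn1, fibronectin, stood at 962, 614, 555 and 626 CPM against 203, 153, 181 and 192 CPM. Mmp14, a membrane-bound matrix protease, had log2 ratios of 1 to 1.66. Of 9 fibroblast and mural markers (2 considered) 1 was higher (Acta2, log2 1.27 to 2), 1 was lower (Dcn, -2.88 to -1.64) and Lum had no UMI in members. The summed fibroblast and mural level was 117 to 149 CPM in members, 65.8 to 122 CPM in the others and 957 to 10670 CPM in the remaining barcodes.

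Signalling outputs were mixed. Of 15 YAP target genes (13 considered) 5 were higher, and F3 stood at 738, 646, 541 and 436 CPM against 130, 158, 52.1 and 67.5 CPM. Ccn2, connective tissue growth factor, stood at 247, 96.1, 45.3 and 131 CPM against 24.3, 23, 20.8 and 18.2 CPM, higher in every library though uneven among members. Ankrd1, Ajuba and Crim1 had log2 ratios of 2.49 to 4.25, 1.27 to 1.95 and 1.04 to 1.62. Of 17 MAPK output genes (16 considered) 3 were higher (Dusp4, a MAP kinase phosphatase, Ier3 and the AP-1 subunit gene Fosl1) and 1 was lower (Etv5, an ETS factor of type 2 cells, at -1.71 to -1.27). Fosl1 stood at 55.8, 66.4, 38.5 and 52 CPM against 18.2, 32.1, 7.29 and 11.9 CPM.

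In the other stress lists 0 to 2 genes were called, counts too small to set apart from the share over all genes. Of 15 hypoxia and glycolysis genes (13 considered) 2 were higher, Ndrg1 and the phosphofructokinase gene Pfkp (log2 1.21 to 1.43). Of 16 p53 target genes (11 considered) 1 was higher, the cell-cycle inhibitor Cdkn1a, at 286, 304, 204 and 227 CPM against 119, 139, 59.8 and 65.7 CPM. Of 16 NF-kB targets (12 considered) 1 was higher (Cxcl16, 1.05 to 1.43), of 16 early stress genes 1 (Hspb1, 1.18 to 2.05), and of 13 interferon genes only 3 reached the CPM minimum, with 0 called. The median ratio of the early stress list was -0.06 to 0.15.

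**Figure D3:**
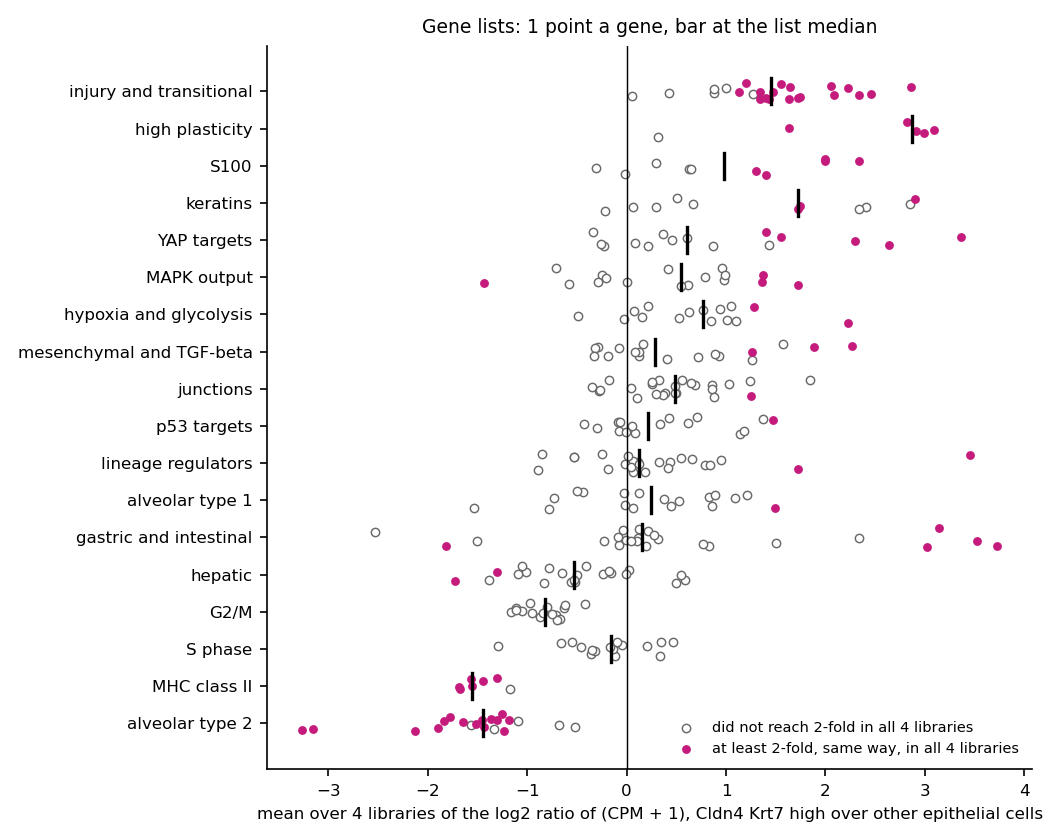
Each point is 1 gene of a list, at its mean log2 ratio of (CPM + 1) over 4 libraries, Cldn4 Krt7 high over other epithelial cells; bars are list medians and filled points passed the size rule. The injury, high-plasticity and keratin bars lie above 1, and the MHC class II and type 2 bars lie below -1.

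Of 24 lineage regulators, 21 of them considered, 2 were higher and 0 lower. Hmga2, a chromatin factor of fetal tissue, stood at 255, 164, 157 and 124 CPM in members and at 29.2, 34.2, 3.30 and 11.6 CPM in the others. In thinned cells, a Hmga2 UMI was found in 22.3, 19.7, 10.4 and 10.7% of members, in 3.47, 4.99, 0.399 and 1.58% of the others and in 0, 2.22, 0 and 0% of endothelial cells. Unthinned, 26.8, 27.9, 13.7 and 15.3% of members had one. Hmga2 levels in both cell sets were higher in the vehicle than in the tamoxifen libraries. Runx2, an osteoblast regulator, was higher by log2 1.28 to 2.07. Nkx2-1, the lung lineage factor, stood at 193, 163, 177 and 165 CPM against 272, 216, 278 and 242 CPM, below the others in each library but within 2-fold.

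Hnf4a, a regulator of gastric and hepatic genes, was above the other cells by log2 1.46, 0.68, 0.68 and 0.35, past 2-fold in 1 library. Its share of thinned cells with a UMI was 28.9, 24.8, 32.1 and 28.9% in members, 8.24, 14.2, 16.4 and 20.7% in the others and 0, 0, 0 and 5.56% in endothelial cells. Unthinned, it was 65.4, 55.8, 68.3 and 56.9% in members and 20.9, 31.8, 34 and 38.3% in the others. Of 24 gastric and intestinal genes 7 reached the CPM minimum, of which 4 were higher and 1 lower. Over all 24 the median ratio was 0.00 to 0.75. Tff1, a gastric trefoil peptide, stood at 106, 123, 429 and 193 CPM against 3.49, 33.5, 14.6 and 25.3 CPM. Ctse, cathepsin E of gastric epithelium, stood at 206, 213, 259 and 322 CPM against 26, 36.1, 27.9 and 29 CPM. Gkn2, a gastrokine, was the more abundant gene and showed no shared direction: 848, 1710, 2504 and 2130 CPM against 1555, 2488, 1844 and 2026 CPM. Gkn3 was lower (log2 -2.93 to -1.21). Of 22 hepatic genes (6 considered) 2 were lower and 0 higher: Trf, transferrin, at 637, 726, 1166 and 1086 CPM against 1770, 2003, 2476 and 2458 CPM, and Alb, albumin, at log2 -2.38 to -1.01. Neither passed against the cells that failed only the Cldn4 and Krt7 limit. There 0 hepatic genes were called, and the list had a median ratio of -0.25 to 0.

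Proliferation genes were not called, though each list median lay below that of all genes. Of 16 G2/M genes (10 considered) 0 were called either way, with a median ratio of -1.19 to -0.57, and of 16 S-phase genes (8 considered) 0, with a median of -0.28 to -0.11. Mki67, a marker of dividing cells, stood at 19, 8.76, 9.57 and 6.63 CPM against 30, 21.5, 25.1 and 20.7 CPM. Among thinned cells, 2 or more G2/M UMIs were found in 18.2, 16.3, 11.9 and 16.2% of members and in 20.5, 20.4, 20.4 and 22.6% of the others. Without thinning the shares were 67.7, 59.2, 74.8 and 57.3% against 62.1, 58.3, 66 and 59.3%, in deeper members, and so gave no shared order.

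Markers of other cell types were read in the same cells. The immune list, summed, stood at 788, 941, 367 and 651 CPM in members, 6668, 5130, 4469 and 3714 CPM in the other epithelial cells and 12906, 2106, 14554 and 1582 CPM in the remaining barcodes. Most of the sum in both epithelial sets was Lyz2, also a type 2 gene. It stood at 641, 866, 233 and 573 CPM in members and at 6339, 5010, 4123 and 3589 CPM in the others. Of the 12 immune genes (2 considered) 0 were higher and 1 was lower, Lyz2. Without Lyz2, at least 2 immune UMIs were present in 20.7, 6, 14.9 and 7.92% of thinned members and in 31.4, 13.2, 32.9 and 13.8% of the others, higher before than after depletion (80.3, 40.9, 76.3 and 36.3% of members unthinned). Endothelial genes summed to 11.9 to 21.7 CPM in members against 39.9 to 52.6 CPM, and the 2 of 8 that were considered were lower, Pecam1 and Egfl7. Their part in the differences above was not tested.

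Other epithelial lists came next. Of 10 airway secretory genes, 5 of them considered, 1 was lower (Scgb1a1, log2 -4.72 to -1.57) and 0 higher, and the list summed to 75.5 to 174 CPM in members against 181 to 769 CPM. The rule left cells over the Dlk1 and Bpifa1 limit among the others. Set against cells that failed only the Cldn4 and Krt7 limit, 0 airway genes were called, with a median ratio of -0.28 to 0.07. Of 9 ciliated genes only 2 reached the CPM minimum, with 0 called, and of 7 neuroendocrine genes none reached it, so none could be called. Neuroendocrine genes summed to at most 1.66 CPM in members. Of 8 basal and squamous genes (3 considered) 2 were higher, Krt14 and Sprr1a, a cornified envelope gene at 53.8, 105, 192 and 163 CPM against 20, 28, 20.5 and 18 CPM. The defining basal genes were near 0 in members: Krt5 at or under 0.45 CPM, Trp63 at or under 0.53 CPM and Dsg3 at or under 0.13 CPM. Of 9 mesothelial genes the 1 considered was higher, Msln, at 44.1, 67.2, 96.5 and 74.2 CPM against 7.18, 8.75, 5.94 and 9.04 CPM, while Wt1, Gpm6a and Rspo1 had no UMI in members.

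Neighbouring classes of epithelial cells were set beside the members by the rule's own limits. Itga2 ranged over libraries from 473 to 716 CPM in members, from 34.7 to 57.3 CPM in cells that failed only the Cldn4 and Krt7 limit, and from 208 to 250.5 CPM in the Rbp4, Agr2 and Phgr1 class. It stood at 61.5 to 105 CPM in the Dlk1 and Bpifa1 class, at 40.1 to 84.2 CPM in the type 1 gated class and at 8.55 to 57.9 CPM in the Lyz1 and Retnla class. For S100a6 the order was the same at the top, with 5824 to 5915 CPM in members, 2199 to 4032 CPM in the Rbp4 class, 1729 to 2244 CPM in the type 1 class and 444 to 896 CPM in cells under the limit. Hopx, a type 1 gene, stood at 75.3 to 116 CPM in members and at 418 to 723 CPM in the type 1 class. Hnf4a ranges of members (77.3 to 120 CPM) and of the Rbp4 class (85.1 to 114 CPM) overlapped. Another limit kept out 68, 806, 87 and 624 cells with at least 5 UMIs of Cldn4 and Krt7 per 10000.

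Within members the sum of Cldn4 and Krt7 varied, and some genes followed it while others did not. The middle cell held 13, 14, 13.2 and 13 UMIs of Cldn4 and Krt7 per 10000, and the highest held 83.5, 104, 70.1 and 135. Both transcripts were seen in 2675 members (86.5%), Krt7 alone in 400 and Cldn4 alone in 18. After thinning, 57.9, 63.1, 56.7 and 63.8% had both, 38, 33, 37.3 and 33.6% Krt7 alone and 2.48, 3.23, 2.99 and 2.12% Cldn4 alone.

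Split by that sum, 1076 members held 5 to 10, 1090 held 10 to 20 and 927 held 20 or more. Sftpc stood at 27568, 41314, 45227 and 48469 CPM in the lowest class and at 1496, 10218, 4621 and 8905 CPM in the highest. Slc34a2 stood at 714, 503, 874 and 861 CPM in the lowest and at 8.68, 95.5, 49.3 and 130 CPM in the highest. Nkx2-1 stood at 237, 190.4, 199 and 208 CPM and then at 125, 132, 152 and 125 CPM. All 3 genes were lower in the highest class in each library.

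S100a6 ran the other way, from 3248, 3459, 2905 and 3012 CPM in the lowest class to 8152, 8471, 9392 and 9169 CPM in the highest. Clu ran from 3707, 3724, 5129 and 5692 CPM to 10002, 8306, 12345 and 13438 CPM. Procr, the endothelial protein C receptor gene, ran from 164, 211, 123 and 192 CPM to 647, 959, 846 and 739.8 CPM. Pyy ran from 0.655, 6.53, 8.74 and 86.8 CPM to 189, 88.8, 1931 and 822 CPM. Hnf4a had no shared direction, at 99.5, 68, 124 and 97.4 CPM in the lowest class and at 127, 85, 101 and 82.5 CPM in the highest. Inhba, Hmga2, Onecut2 and Vim had none either. Their log2 ratios of the highest over the lowest class were -3.33 to 2.38, -1.54 to 1.47, -0.46 to 1.08 and -0.26 to 2.35. Mki67 stood at 28.1, 11.5, 20 and 9.60 CPM and then at 2.89, 3.25, 6.16 and 3.32 CPM, lower in each library. These cells were ordered by genes of the same counts, so each of these trends is a description.

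**Figure D4:**
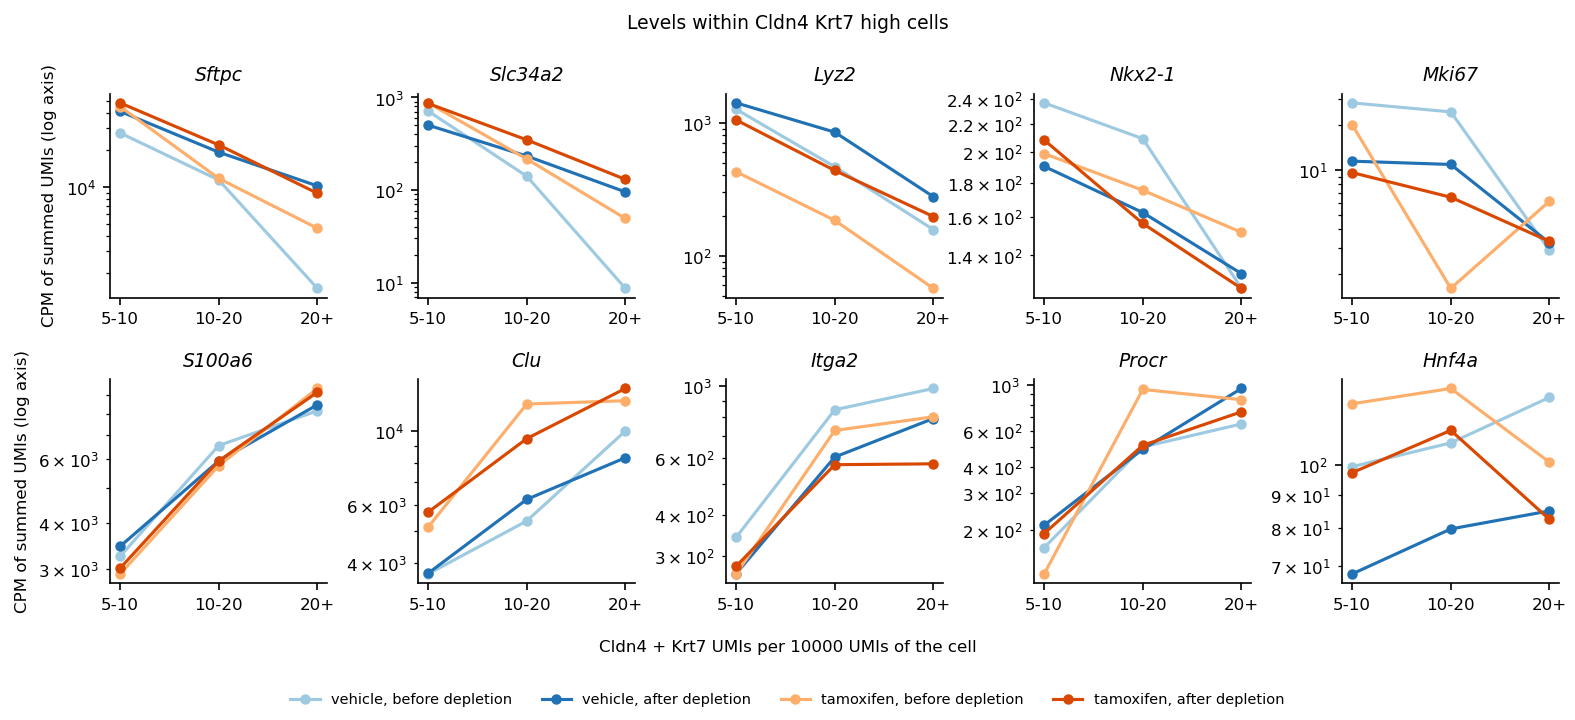
CPM of summed UMIs (log axis) in 3 classes of Cldn4 Krt7 high cells by Cldn4 plus Krt7 UMIs per 10000, 1 line a library. Sftpc, Slc34a2 and Nkx2-1 are lowest in the highest class, S100a6 and Clu are highest there, and the Hnf4a lines cross.

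Libraries labelled tamoxifen and vehicle were then compared within Cldn4 Krt7 high cells, a contrast set up to delete the floxed Hnf4a allele, which these counts do not show to be lost. Each portion gives 1 library a side, so the differences have no replicate check. Of 8899 genes considered, the tamoxifen library of both pairs had 31 (0.348%) above 2-fold and 65 (0.73%) below it. The same rule in the other epithelial cells gave 33 and 87 of 8942. The pair before depletion alone gave 122 and 225, and the pair after it 59 and 90.

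Hnf4a itself had log2 ratios of 0.11 (exact interval of the count ratio -0.06 to 0.28) before depletion and 0.35 (0.27 to 0.43) after it in members, and of 0.89 and 0.68 in the other cells. Higher genes began with Pyy, at log2 3.29 and 3.08 in members and 1.54 and 1.39 in the others. Gkn1, a gastrokine, had 0.672, 2.53, 16.9 and 16.5 CPM in members, or 3.42 and 2.31, against 0.43 and 0.57 in the others. With 3 Gkn1 UMIs in the vehicle library before depletion, the count-ratio interval there was 3.06 to 6.96. Whether these ratios differ between the cell sets was not tested. Alk, a receptor tyrosine kinase, had 7.62, 2.59, 49.3 and 16.5 CPM, or 2.55 and 2.29. Cym, the gastric protease chymosin, had 2.46, 1.97, 68.3 and 12.2 CPM, or 4.32 and 2.15, with 4.68 and 2.89 in the others. Pthlh, parathyroid hormone-like hormone, stood at 104, 108, 324 and 309 CPM, with ratios of 1.64 and 1.51 in members and 1.16 and 1.23 in the others.

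The remaining higher genes named by rank were Col15a1 (2.98 and 1.57), Adamts18 (1.93 and 1.54), St6galnac3 (1.88 and 1.61), Hs3st3b1 (1.57 and 1.42) and Aspa (1.59 and 1.38). They encode a collagen, a secreted protease, a sialyltransferase, a heparan sulfate sulfotransferase and aspartoacylase. St6galnac3 turned to -0.61 when members with 2 or more UMIs of markers of another class were left out, a limit that kept only 10, 223, 9 and 305 members.

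Lower genes included products of gut and liver epithelia. Plac8 stood at 70.4, 62.9, 2.39 and 5.90 CPM in members, or log2 -4.39 and -3.21. Lgals4, galectin 4 of the intestine, stood at 39, 23, 3.31 and 4.04 CPM, or -3.21 and -2.25, with -1.04 and -1.31 in the other cells. Ttr, transthyretin, stood at 12.8, 34.7, 0.552 and 1.86 CPM, or -3.15 and -3.64, and the apolipoprotein gene Apoc2 at 42.8, 13, 0.920 and 0.563 CPM. Ttr had 3 UMIs in the tamoxifen library before depletion, with a count-ratio interval of -6.85 to -2.91. Both tamoxifen values lay below both vehicle values for each of these genes.

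The potassium channel gene Kcnh7 stood at 33.4, 22.1, 0.368 and 0.530 CPM, or -4.65 and -3.91, on 149, 716, 2 and 16 UMIs. Its count-ratio intervals were -9.56 to -4.63 and -6.19 to -4.67 on the log2 scale. Eps8l3, a relative of an actin regulator, had ratios of -3.17 and -2.65, and Smim6 of -2.42 and -2.49, with -3.89 and -3.77 in the other cells. Chn2, a Rac GTPase-activating protein, had -3.21 and -1.91, Tmem150b -1.89 and -1.70, and the adhesion receptor gene Adgrl3 -2.46 and -1.63. All of these were also below 0 in the other epithelial cells.

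By list, no injury, high-plasticity, type 2 or MHC class II gene passed in either direction between tamoxifen and vehicle members (24, 5, 19 and 6 genes considered), and with shares of 0.348 and 0.73% over all genes, lists of this size would hold few or no calls. Median ratios of the injury list were -0.02 and 0.07. Of the gastric and intestinal list (11 considered), Gkn1 and Cym were higher and 3 were lower (Vil1, Lgals4 and Krt20). Of the hepatic list (7 considered) 1 was higher (Itih2) and 1 lower (Ttr). Further genes lower in tamoxifen members were the keratins Krt17 and Krt20, Cldn23, Cdh2, the p53 targets Gdf15 and Pmaip1, and Scgb3a2.

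**Figure D5:**
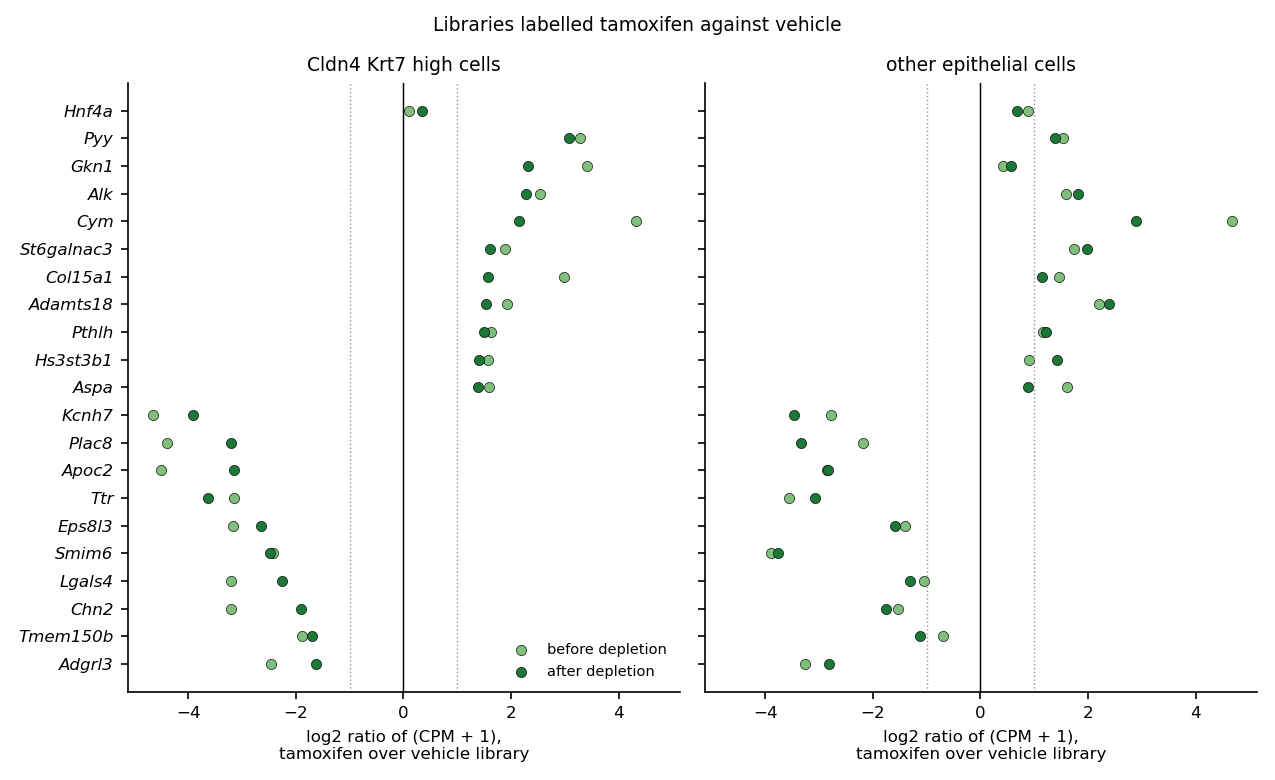
Log2 ratio of (CPM + 1), library labelled tamoxifen over vehicle, in Cldn4 Krt7 high cells (left) and other epithelial cells (right), 1 point for each portion, dotted lines at 2-fold. Hnf4a lies between 0.11 and 0.35 at left, and Pyy and Gkn1 lie further right in Cldn4 Krt7 high cells than in the others.

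Few genes differed between the portions before and after depletion in members. Of 8745 genes considered, 6 (0.0686%) were higher and 8 (0.0915%) lower after depletion, by 2-fold or more in both treatments. Il1b, an inflammatory cytokine of myeloid cells, stood at 21.1, 0.123, 16.2 and 0 CPM. Chil3, a macrophage lectin, stood at 26.7, 0.432, 17.7 and 0.0994 CPM, and the chemokine gene Ccl6 at 17.7, 0, 15.5 and 0 CPM. These leukocyte genes were all near 0 after depletion, alongside the lower share of cells with 2 or more immune UMIs given above. Ctla2a (0.672, 12.6, 4.05 and 20.3 CPM), Lsmem1 (20.4, 52.6, 31.7 and 74 CPM) and Scgb1a1 (6.72, 16.6, 2.76 and 48.2 CPM) were higher after it.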

How the data were processed

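Gene counts per barcode of 4 droplet libraries (10x 3′ version 3 chemistry) were analysed. The authors deposited filtered UMI counts, made with Cell Ranger 7.2.0 on build mm10 per the submitters' processing notes, while the file headers give 7.0.1. The step that set the cell calls beyond that was not given in the sources used here. The matrices list 32289 features, of which 32158 matched GENCODE M21, used for positions.

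Cells were chosen by fixed limits on the deposited counts, with no clustering and no doublet removal. UMIs were summed per library and cell set, scaled to a total of 1000000 (CPM), and compared as log2 of (CPM + 1). Pseudocounts pull ratios of low genes towards 0. With 1 library per group no test was run: size rules of 2-fold with a 10 CPM minimum, exact Clopper-Pearson and Poisson 95% intervals and exact conditional binomial intervals of count ratios stand in. Interval bounds of ratios come from counts without the pseudocount. The 20 genes of the member rule were left out of counts of genes and of lists. Cells were thinned to 5000 UMIs for shares, leaving out 6, 38, 5 and 42 shallower members. The share in endothelial cells gives a level of free RNA for genes they lack. That level can be too low, because these cells were chosen without UMIs of the epithelial genes of the rule.

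Genes named were the 5 markers, the 15 furthest higher and 10 furthest lower genes by smallest log2 ratio over libraries, Hnf4a with 10 each way for tamoxifen, 3 each way for depletion, and from each of 30 lists the 4 most abundant plus those past the rule, of which part is printed. Of the genes the rules name, 2 are not reported here. Members, lists and rules were chosen with earlier results of these data known. On simulated counts with 200 genes changed 4-fold, 99.5% were recovered between members and other cells (8494 genes) and 100% between tamoxifen and vehicle (8714 genes), and 0 unchanged genes were called. A 4-fold change lies well past the 2-fold rule, so high recovery was set in advance. Spread between animals is not known with 1 library per group, so these figures give no rate of false calls here. Promoters came from RefSeq (GRCm38.p6). Tools were Python 3.11.15, numpy 2.4.6, scipy 1.17.1, scanpy 1.11.5, R 4.3.3 and, for scaling alternatives only, edgeR 4.0.16 and DESeq2 1.42.0.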

Additional observations from a re-analysis of the deposited data

How the results depend on the processing

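Shares of Cldn4 Krt7 high cells (main values 14.6, 21.6, 15.1 and 20.7%) were 9.40, 14.2, 9.98 and 13.4% with a limit of 10 UMIs of Cldn4 and Krt7 per 10000. Thinning to 5000 UMIs gave 20.5% for vehicle and 19.5% for tamoxifen after depletion. Leaving out cells with 2 or more UMIs of other classes' markers gave 26.6% for tamoxifen after depletion, but few cells of these depths pass that limit, so a limit of 5 per 10000 was added after seeing the data and gave 18, 22.9, 19.1 and 22.4%. Genes higher in members numbered 327 in the main comparison, and genes lower 252 (56.5% higher). The counts were 145 and 269 (35% higher) without cells with 2 or more UMIs of other classes' markers, 380 and 431 with the limit of 10, 251 and 165 after thinning, and 54 and 18 at 4-fold. Leaving out 1 library at a time gave 342 to 380 higher and 267 to 290 lower genes. TMM scaling shifted ratios by -0.12 to -0.07 and gave 287 higher and 301 lower genes, or 48.8% higher. For tamoxifen over vehicle, 31 genes were higher and 65 lower in the main comparison (32.3% higher). Without cells with 2 or more UMIs of other classes' markers, 59 were higher and 44 lower (57.3% higher), with only 7 and 15 of them among the main calls. The counts were 34 and 37 with the limit of 10, 58 and 124 with no CPM minimum, 4 and 7 at 4-fold, 122 and 225 in the pair before depletion alone, and 59 and 90 in the pair after it alone. The single-pair comparisons were added after seeing the data. The cause of these moves was not tested, apart from the stricter or looser limits themselves.

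Of 510 re-computed ratios of named genes between members and other cells, 489 kept their direction and side of 2-fold, 18 no longer reached 2-fold, 3 now reached it and 0 reversed. The 18 losses fell on 18 of the 30 named genes. Of 273 between tamoxifen and vehicle, 239 kept both, 33 no longer reached 2-fold and 1 reversed. The 33 losses fell on 18 of the 21 named genes, so most of them missed 2-fold under at least 1 setting. The reversal was St6galnac3, at -0.61 without cells with 2 or more UMIs of other classes' markers. No paired analysis was possible because each side of a treatment or depletion pair is 1 library, the portions share a suspension, and members were chosen on the counts compared within each library. Depth limits calls of genes under 10 CPM in the libraries before depletion, where members numbered 127 and 139.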
